A study of Mus musculus with 2 samples.

Results

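The cells described here are those with the largest share of late G2/M transcripts in a culture of mouse bone marrow progenitors. In each library, cells were ranked by the summed UMIs (unique molecular identifiers, which count each captured RNA molecule once) of Cdc20, Ccnb2, Cenpf, Aurka, Ube2c and Hmmr over all UMIs of the cell, and the top 10% were taken as members. This gave 291 of 2912 cells in the control library and 600 of 6004 in the knockdown library, 891 of 8916 in all. All other cells are called the rest.

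The starting cells were LSK cells (lineage-negative, Sca-1-positive, Kit-positive bone marrow, rich in blood stem and progenitor cells) of C57BL/6 mice, sorted by GFP after retroviral infection. The control group carried a retroviral shRNA without a mouse target and the knockdown group an shRNA against Cxxc5. Both groups were grown in 20% serum with GM-CSF and SCF, each at 10 ng/ml, and were collected on day 3. Each library pooled 5 samples of its group, so that each group had 1 library and no comparison could be tested. The bone marrow came from 5 mice; the labels do not say which mice entered which pool, or their age and sex.

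Cells entering mitosis build up transcripts that peak in late G2. Cyclin B with Cdk1 drives entry, Aurora and Polo-like kinases build the spindle, and the anaphase-promoting complex with its coactivator Cdc20 then marks cyclin B and securin for destruction. In the marrow, division is frequent in granulocyte-monocyte progenitors and early neutrophil precursors and ceases as neutrophils mature. Promoters of late cell cycle genes commonly carry CCAAT boxes, bound by NF-Y, and a cell cycle homology region (CHR), bound by the DREAM and MuvB complexes.

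The 6 rule genes share these promoter letters. The RefSeq promoter windows of GRCm38.p6, 250 bases before to 50 after the start of transcription, were searched on both strands for TTTGAA (the CHR letters) and CCAAT. All 6 windows held TTTGAA and at least 2 matches to CCAAT. The match of Aurka to TTTGAA lies in the last 20 bases of its window, which were not found in a GENCODE M21 transcript of the gene, so that the place of its start is less sure. Of all 32851 windows in the table, 17.9% held TTTGAA, 37.4% held CCAAT and 6.95% held both. At least 2 matches to CCAAT were in 11.7% of them. For the other G2/M list genes, 109 windows of 95 genes were found, of which 36.7% held both and 34.9% at least 2 matches to CCAAT. For the G1/S and replication lists 5% of 40 windows held both and 30% at least 2 matches to CCAAT. A match describes the letters and is not a measured binding site. The following 4 windows are shown, 5′ to 3′ on the gene's strand, because Ube2c and Cenpf differed most between members and rest and Cdc20 and Ccnb2 are the coactivator and the cyclin of mitotic entry and exit. Capitals mark the matches on either strand (ATTGG and TTCAAA are CCAAT and TTTGAA read on the other strand). The Ube2c window lies at chr2:164769679-164769978 on the plus strand. On the minus strand lie those of Cdc20 at chr4:118437294-118437593, Ccnb2 at chr9:70421505-70421804 and Cenpf at chr1:189688037-189688336.
Ube2c: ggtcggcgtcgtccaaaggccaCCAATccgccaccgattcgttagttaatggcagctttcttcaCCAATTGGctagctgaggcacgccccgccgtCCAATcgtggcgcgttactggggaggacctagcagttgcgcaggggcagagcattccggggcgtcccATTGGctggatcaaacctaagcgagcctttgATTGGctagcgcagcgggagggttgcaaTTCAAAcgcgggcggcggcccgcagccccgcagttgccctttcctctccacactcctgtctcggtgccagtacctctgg
Cdc20: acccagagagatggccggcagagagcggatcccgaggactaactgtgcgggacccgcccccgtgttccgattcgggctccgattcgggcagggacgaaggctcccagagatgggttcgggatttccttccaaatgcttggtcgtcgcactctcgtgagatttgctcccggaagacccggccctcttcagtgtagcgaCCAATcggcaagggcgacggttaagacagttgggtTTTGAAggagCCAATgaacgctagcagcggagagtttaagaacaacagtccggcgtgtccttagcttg
Ccnb2: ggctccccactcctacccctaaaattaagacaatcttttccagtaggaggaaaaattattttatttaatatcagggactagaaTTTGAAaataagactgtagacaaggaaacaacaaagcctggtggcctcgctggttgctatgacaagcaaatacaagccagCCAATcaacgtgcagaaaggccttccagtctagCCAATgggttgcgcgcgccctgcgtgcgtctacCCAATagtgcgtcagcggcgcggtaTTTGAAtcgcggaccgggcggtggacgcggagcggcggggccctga
Cenpf: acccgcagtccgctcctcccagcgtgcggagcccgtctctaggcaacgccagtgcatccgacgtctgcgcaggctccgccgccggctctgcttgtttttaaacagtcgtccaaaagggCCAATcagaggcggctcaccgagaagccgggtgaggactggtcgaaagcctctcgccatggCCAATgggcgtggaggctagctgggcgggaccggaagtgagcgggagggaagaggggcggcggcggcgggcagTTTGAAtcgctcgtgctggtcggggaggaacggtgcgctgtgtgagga

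The control library held 49333454 UMIs in 2925 barcodes and the knockdown library 62910229 in 6015. Members were deeper than the rest, with a median of 20327 against 16909 UMIs per cell in control and 11769 against 10504.5 in knockdown cells. The libraries shared 26 barcode sequences. Cxxc5, the targeted gene, had 58 UMIs in control members and 3 in knockdown members, a log2 ratio of knockdown to control of -4.28 (95% interval -6.81 to -2.87). In the rest that ratio was -2.89. Intervals here and below are exact and cover counting error only.

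The late G2/M share ran on without a gap at the threshold. The lowest member stood at 1253.13 CPM (UMIs of these genes scaled to a common total per cell) and the highest other cell at 1253.03 in the control library; the same values were 1262.63 and 1261.19 in the knockdown library. Within 10% of the threshold lay 80 members and 93 other cells of the control and 184 and 226 of the knockdown library. A threshold set at a fixed rank can be expected to fall inside a run of cells, and these values do not say whether the members are a population of their own. Members held a median of 32 rule UMIs per cell in control and 18 in knockdown cells, against 7 and 5 in the rest. With 1 threshold for both libraries, 1256.4 CPM, 9.82% of control cells (8.76 to 11, exact Clopper-Pearson) and 10.2% of knockdown cells (9.42 to 11) lay above it.

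**Figure D1:**
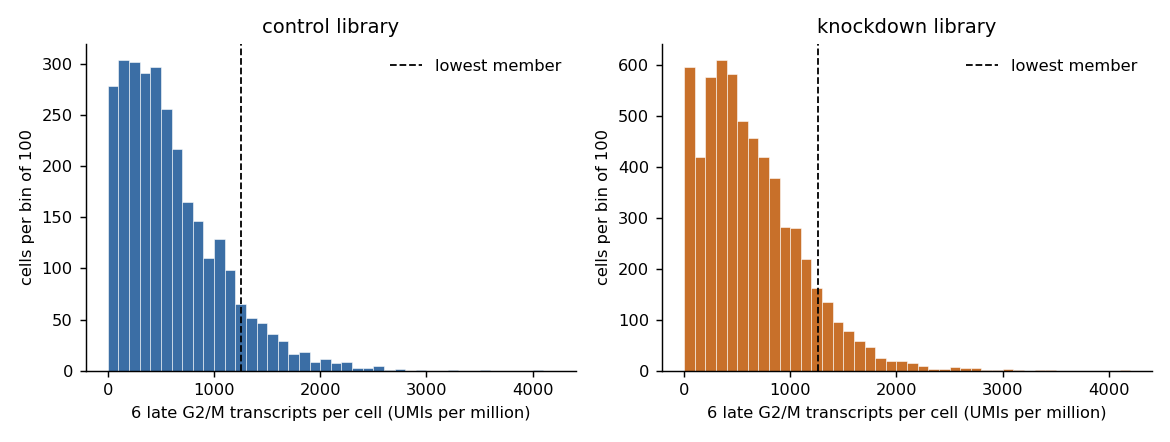
Number of cells (y axis, bins of 100 CPM) by the summed level of the 6 rule genes (x axis, CPM) in the control and knockdown libraries, with the lowest member as a dashed line. There is no gap in the counts at the lines at 1253 and 1263 CPM.

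The rule genes are given as a description, since they chose the cells. Ube2c, the ubiquitin-conjugating enzyme of the anaphase-promoting complex, stood at 852 CPM in members and 221 in the rest of the control library, and at 847 and 237 in the knockdown library. It made up 52.9% of the members' rule UMIs in control and 53.1% in knockdown cells. Cdc20, the coactivator of that complex, stood at 232 against 98.9 CPM in control and 239 against 109 in knockdown cells. Cenpf, an outer kinetochore protein, stood at 157 against 45.3 and at 132 against 41 CPM. The level of Ccnb2, a B-type cyclin, was 157 against 81.2 CPM in control and 152 against 81.1 in knockdown cells. For Aurka, the Aurora kinase of the spindle poles, it was 107 against 47.8 and 123 against 54.3 CPM. Hmmr, a spindle assembly protein, reached 105 against 44.7 and 103 against 46.1 CPM. Choosing cells on counts raises those same counts. When the UMIs of each cell were split at random, cells chosen on one set and measured on the other, the summed rule genes were higher by log2 1.33 in place of 1.58 in control and 1.02 in place of 1.49 in knockdown cells. Ranking without Ube2c kept 58.1% of control and 55.2% of knockdown members, and leaving out any other rule gene kept between 83.7% and 94.2%.

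Counts over all genes are given first. They include the 6 rule genes, and a gene could enter through the group in which it was high. Of 2589 genes of at least 50 CPM in members or rest of the control library, 92 (3.55%) were at least 1.5-fold higher in members and 22 (0.85%) at least 1.5-fold lower. In the knockdown library 85 of 2604 (3.26%) were higher and 11 (0.422%) lower. Among 2512 genes measured in both libraries, 71 were higher in both, which is 82.6% of those higher in control and 83.5% of those higher in knockdown cells, and 10 were lower in both. Ranked at 5000 UMIs per cell, 11 genes of the control and 5 of the knockdown library were lower. The median gene differed by log2 -0.04 in control and -0.06 in knockdown cells.

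Genes of mitosis outside the rule were often higher in members, and genes of DNA replication often lower. Lists were counted over genes of at least 20 CPM over all cells, a level that does not depend on the group, of which 2.53% were higher and 1.35% lower in control members and 2.45% and 0.873% in knockdown members. Of the G2/M list genes outside the rule, 32 of 76 were higher and 0 lower in the control library, with a median of log2 0.52. In the knockdown library 20 of 79 were higher and 1 lower, with a median of 0.39. Members were deeper than the rest, and with the rest weighted to their depth 19 were higher in control and 15 in knockdown cells. Ranked without Ube2c, 21 and 13 were higher. These lists cover cyclins and kinases, the anaphase-promoting complex, kinetochore, spindle, cytokinesis and chromosome structure.

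Drivers of mitotic entry were among the higher genes. Ccnb1, the other main B-type cyclin, stood at 208 CPM in members and 76.4 in the rest of the control library (log2 1.44, interval 1.35 to 1.54) and at 202 and 91.3 in the knockdown library (1.15, 1.06 to 1.23). Its partner kinase Cdk1 stood at 228 against 114 CPM (interval of the log2 ratio 0.91 to 1.09) and 231 against 123 (0.83 to 0.99). Plk1, the Polo-like kinase, stood at 102 against 46.1 (1.15) and 104 against 54 (0.95). Ccna2, the cyclin of S phase and G2, differed less, by 0.55 and 0.35, and did not reach 1.5-fold in either library. Of the G2/M transcription factor list, 0 of 3 genes reached it in control and 0 of 2 in knockdown cells; Mybl2, the B-Myb partner of the MuvB complex, differed by -0.25 and -0.24.

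Spindle and cytokinesis genes had the highest medians among the G2/M lists outside the rule in the control library, at log2 0.74 and 0.77. In the control library 10 of 13 spindle genes and 5 of 6 cytokinesis genes were at least 1.5-fold higher, and in the knockdown library 5 of 13 and 3 of 6. Nusap1, which bundles spindle microtubules, stood at 137 against 49.3 CPM in the control (log2 1.48) and 126 against 46.1 in the knockdown library (1.45). Kpna2, an importin that holds spindle assembly factors, differed by 1.41 and 1.26. Prc1, a bundler of the central spindle, differed by 1.04 and 1.06. Of 16 kinetochore genes 7 were higher in control and 6 in knockdown cells, among them Cenpe, a kinetochore motor (1.14 and 0.86), and Cenpa, the centromeric histone (0.92 and 0.78). Of the 5 genes of the chromosomal passenger complex list 3 and 2 were higher, and Aurkb, its kinase, differed by 0.69 and 0.59.

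Other parts of the division machinery showed few such genes. Apart from the rule genes, 1 of 15 genes of the anaphase-promoting complex list was at least 1.5-fold higher in control and 1 of 16 in knockdown cells. The one was Fzr1, the coactivator of late mitosis and G1, at 71 against 31.9 CPM (log2 1.16) and 65.5 against 35.1 (0.90). The list's medians were 0.02 and -0.03. In the augmin complex, which branches spindle microtubules, none of 4 genes was 1.5-fold higher or lower in either library. The centrosome list had 0 of 3 and the nuclear lamina and envelope list 0 of 6. Top2a (0.54 and 0.46) and Mki67 (0.51 and 0.48), common proliferation markers, were below 1.5-fold.

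S phase genes were low in members. Of the G1/S and replication list genes 18 of 40 were at least 1.5-fold lower in control and 17 of 42 in knockdown cells, 0 were higher in either, and both medians were log2 -0.54. Ranked without Ube2c 13 and 7 were lower, ranked at 5000 UMIs per cell 14 and 11, and ranked by the other G2/M list genes 11 in each library. Pcna, the sliding clamp of DNA polymerase, stood at 64.9 against 116 CPM in the control (-0.83, interval -0.99 to -0.68) and 65.1 against 108 in the knockdown library (-0.73, -0.87 to -0.59). Uhrf1, which maintains DNA methylation at the fork, differed by -0.97 and -0.98. The replicative helicase subunits Mcm2 (-0.88 and -0.72), Mcm4 (-0.97 and -0.67), Mcm6 (-0.83 and -0.67) and Mcm3 (-0.64 and -0.60) were lower in both libraries. Dbf4, the activator of the Cdc7 kinase, stood at 95.7 against 69.7 CPM (0.46) and 95.4 against 72.1 (0.40), and was the listed gene with the highest ratio in both. By sign, 61 of 76 other G2/M list genes had ratios above 0 in control and 60 of 79 in knockdown cells, and 1 of 40 and 2 of 42 G1/S and replication genes did. Over all genes of at least 20 CPM the median ratio was -0.04 and -0.06, and the share above 0 was not counted. The counts by sign are therefore a description and no check of the members' name. Some G2/M genes had ratios below 0, such as Smc3, a cohesin subunit (-0.29 and -0.28). The lowest ratios were in the chromosome structure list, at -0.51 in control and -0.87 in knockdown cells. In the anaphase-promoting complex list they were -0.46 and -0.32. Mybl2 belongs to the transcription factor list, which is outside these counts. Transcripts alone do not separate late G2 from mitosis.

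**Figure D2:**
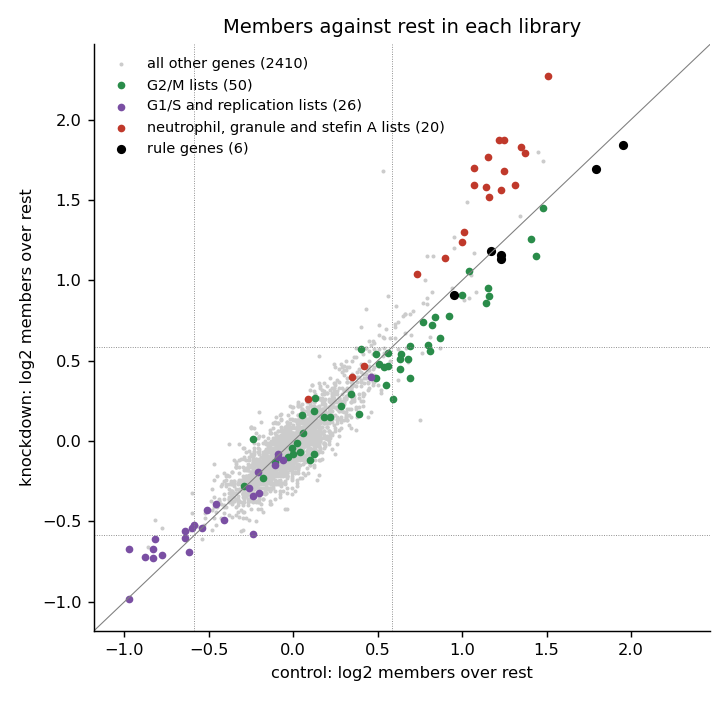
Log2 level of members over rest in the control library (x axis) and the knockdown library (y axis) for 2512 genes of at least 50 CPM in both; colours mark gene lists, dotted lines 1.5-fold, the solid line equal ratios. Of 50 plotted G2/M list genes 39 lie above 0 on both axes and 5 below 0 on both, all 20 neutrophil, granule and stefin A genes lie above the line, and 25 of 26 G1/S and replication genes lie below 0 on both axes. Such counts were not made over all plotted genes.

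Neutrophil genes formed the other large group that was higher in members. All 11 neutrophil markers of sufficient level were at least 1.5-fold higher in both libraries, with medians of log2 1.22 in control and 1.59 in knockdown cells. Ranked by the other G2/M list genes, 3 of them were higher in control and 8 in knockdown cells, and 7 control markers were higher with the top 20% as members. Of the secondary and tertiary granule list 8 of 11 genes were higher in each library (medians 1.07 and 1.52), and of the stefin A protease inhibitors 6 of 6 (1.14 and 1.73). Camp, the cathelicidin precursor of secondary granules, stood at 1991 against 701 CPM in the control (1.51) and 2359 against 490 in the knockdown library (2.27). The 10 richest members held 52.9% and 22.2% of its UMIs, and without them members stood at 970 and 1863 CPM. Ngp, another secondary granule protein, stood at 3704 against 1554 (1.25) and 4442 against 1212 (1.87). S100a8, a calgranulin, was at 23874 against 10196 CPM (1.23) and 21853 against 7398 (1.56), and at 20525 and 19739 without its 10 richest members. Ltf, lactoferrin, differed by 1.37 and 1.79, with UMIs in 63 control and 107 knockdown members. The 10 richest held 52.8% and 46.6% of them, and without these members the level was 121 CPM against 96.9 in the control rest and 192 against 103 in the knockdown rest. Cebpe, the transcription factor of granule gene expression, differed by 0.79 and 0.85. The stefin A genes are near-identical copies, so that reads may be split between them.

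Most markers of earlier and other lineages differed less or were lower. None of 10 granulocyte-monocyte progenitor markers reached 1.5-fold (medians 0.31 and 0.30). Elane, a primary granule protease, was at 0.42 and 0.39, and Mpo, myeloperoxidase, at -0.11 and -0.05. Irf8, a factor of monocytes and dendritic cells, differed by -0.73 and -0.55, and Cd34, a progenitor surface marker, by -0.82 and -0.81. Monocyte markers had 0 of 6 genes higher and 2 lower in the control library, and 0 of 4 and 1 in the knockdown library. Sums of the lists went both ways. In members against rest, the monocyte list stood at 2690 against 2387 CPM in control and 2313 against 1910 in knockdown cells. The mast cell list stood at 204 against 111 and 173 against 99.6. It rested in part on few cells, as Cma1 had UMIs in 3 control and 6 knockdown members and Mcpt2 in 1 and 7. The basophil list stood at 299 against 114 and 153 against 128. Of its genes 2 of 2 were at least 1.5-fold higher in control and 0 of 1 in knockdown members. The erythroid list, with no gene of at least 20 CPM, stood at 68.7 against 25.9 and 23.7 against 16.8. Lower were the dendritic cell (119 against 225 and 41.5 against 86.5) and multipotent progenitor lists (2061 against 2327 and 1879 against 2128). In the dendritic cell list, the 10 richest members held 98.6% and 100% of the members' Cd74 UMIs. Prss34, a basophil and mast cell protease, stood at 134 against 11.2 CPM in the control library, with all of its 807 UMIs in 9 members, and at 22.7 against 5.84 in the knockdown library, with 160 UMIs in 7 members. Ribosomal protein genes had medians of -0.14 in both libraries.

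Members and rest also differed in their make-up by cluster. Cells of both libraries were clustered together without the genes of the proliferation lists. Clusters 6 (led by Stfa1, Il1r2, Fcnb and S100a9) and 8 (led by Stfa2, Ltf, Ly6g and Camp) were neutrophil-like by their markers, cluster 0 was granulocyte-monocyte progenitor-like, cluster 7 with 29 cells was mast cell-like, and 5 clusters stayed unnamed. Unnamed cluster 2 was led by Ccl17, H2-Aa, Cd74 and H2-Eb1. It had 5 dendritic cell markers in its top 10 genes, but 8 raised monocyte markers against 5 dendritic ones. Unnamed cluster 5 had Prss34, Gata2, Pf4 and Cpa3 in its top 10. The unnamed clusters, pooled in some values below, thus differ in their leading genes. Neutrophil-like clusters held 43.3% of control members (95% interval 37.5 to 49.2) against 19.8% of the rest (18.3 to 21.3). In the knockdown library they held 34.0% (30.2 to 37.9) against 13.5% (12.6 to 14.4). Of the cells of cluster 8, 21.6% were members in the control (16.2 to 27.9) and 30.3% in the knockdown library (25.1 to 35.9). For cluster 6 these shares were 18.6% and 18%, and for the progenitor-like cluster 0 they were 10.4% and 10.8%. The lowest shares were in unnamed cluster 1, with 5.82% and 5.84%. When all variable genes entered the clustering, neutrophil-like cells made up 22.3% and 17.2% of members against 10.2% and 6.01% of the rest.

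This make-up depended on the genes used for the ranking. Ranked by the other G2/M list genes in place of the 6, the top 10% held 27.8% neutrophil-like cells in the control (22.8 to 33.4) and 21.7% in the knockdown library (18.4 to 25.2), with 43.6% and 39.3% of its cells shared with the members. Ranked without Ube2c the shares were 34.7% and 25.8%. Of cluster 0, 4.63% and 4.16% lay in the top 10% by the other G2/M genes. Ube2c, which chose the cells, stood at 934 CPM in neutrophil-like and 783 in unnamed members of the control library, and at 1009 and 767 in the knockdown library. In the rest it stood at 225 and 220 CPM in the control and at 223 and 239 in the knockdown library.

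**Figure D3:**
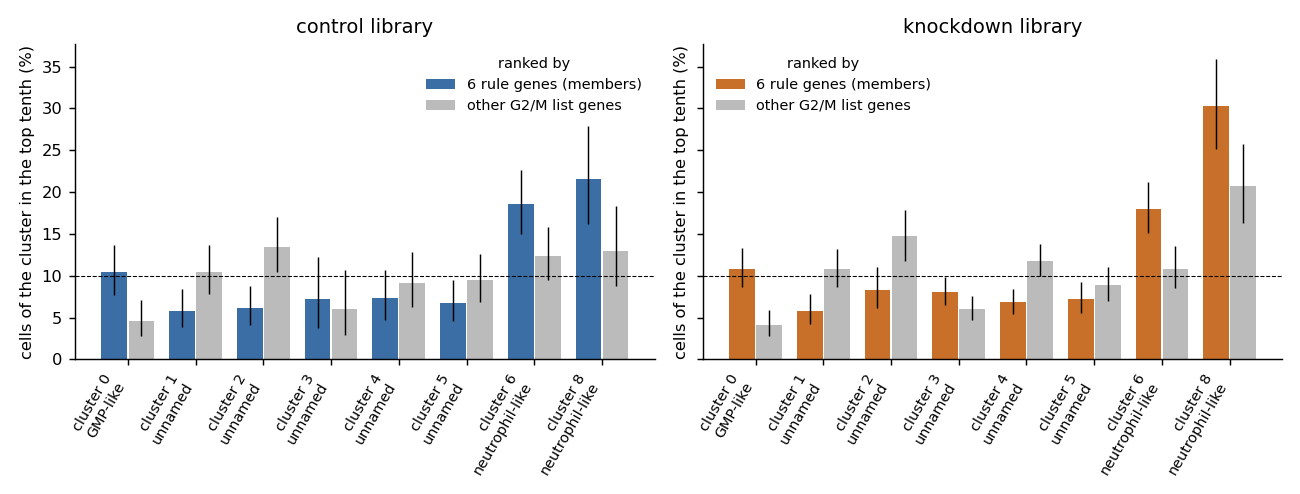
Share of each cluster's cells in the top 10% (y axis, %) by the 6 rule genes (coloured) and by the other G2/M list genes (grey), with exact 95% binomial intervals (counting error) and a dashed line at 10%; mast cell-like cluster 7 is left out. With the rule genes the intervals of clusters 6 and 8 lie above the line in both libraries. With the other G2/M genes those of cluster 2 (13.4% and 14.7%) and of cluster 8 in the knockdown library (20.7%) do, while cluster 6 (12.4% and 10.8%) and control cluster 8 (13%) have intervals that include 10%.

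Within clusters the division genes still differed between members and rest, while the neutrophil marker medians were smaller than over all cells. In the neutrophil-like clusters the other G2/M lists had medians of log2 0.55 in control and 0.49 in knockdown cells, and the G1/S and replication lists -0.64 and -0.76. The neutrophil markers had medians of 0.11 and 0.37 there, with -0.03 and 0.05 in cluster 6 alone and 0.01 and -0.10 in cluster 8 alone. They were -0.16 and 0.42 in the progenitor-like cluster and -0.24 and -0.25 in the unnamed clusters. Ccnb1 differed by 1.62 and 1.43 within the neutrophil-like clusters, and Plk1 by 1.65 and 1.08 in cluster 6. In the unnamed clusters Ccnb1 differed by 1.31 and 1.01 and Pcna by -0.80 and -0.61. When the rest was weighted to the members' cluster shares, 0 of 11 neutrophil markers were 1.5-fold higher in either library. The clusters were built and named from these same genes, so that smaller differences within them and after weighting were to a large part set by construction.

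Cells of each library were next placed in 10 equal bins by late G2/M share, with the members as bin 1. The other G2/M genes were lower in each further bin, and the neutrophil genes were not. The summed other G2/M lists stood at 10086 CPM in control members, 9453 in bin 2 and 4167 in bin 10; in the knockdown library the values were 9901, 9330 and 5144. Plk1 ran from 102 CPM in members to 87 in bin 2 and 8.04 in bin 10 of the control library. The G1/S and replication lists were lowest in members, at 2851 and 3031 CPM, and highest in bin 7 of the control (4454) and bin 8 of the knockdown library (4633). The summed neutrophil markers stood at 46497 CPM in control members and 18032 in bin 2, and were higher again, at 31937, in bin 9. In the knockdown library they stood at 44938 in bin 1, 14965 in bin 2 and 22356 in bin 10. Neutrophil-like cells made up 43.3% of bin 1 and 21% of bin 2 in the control library, and 34% and 13.5% in the knockdown library. Bin 10 also differed from bin 1 in depth, with median UMIs of 9896 against 20327 in control and 6312 against 11769 in knockdown cells. Unnamed cluster 5 made up 51.4% of bin 10 against 10.3% of bin 1 in control and 36.9% against 9.5% in knockdown cells. The part of depth and make-up in these runs was not tested.

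**Figure D4:**
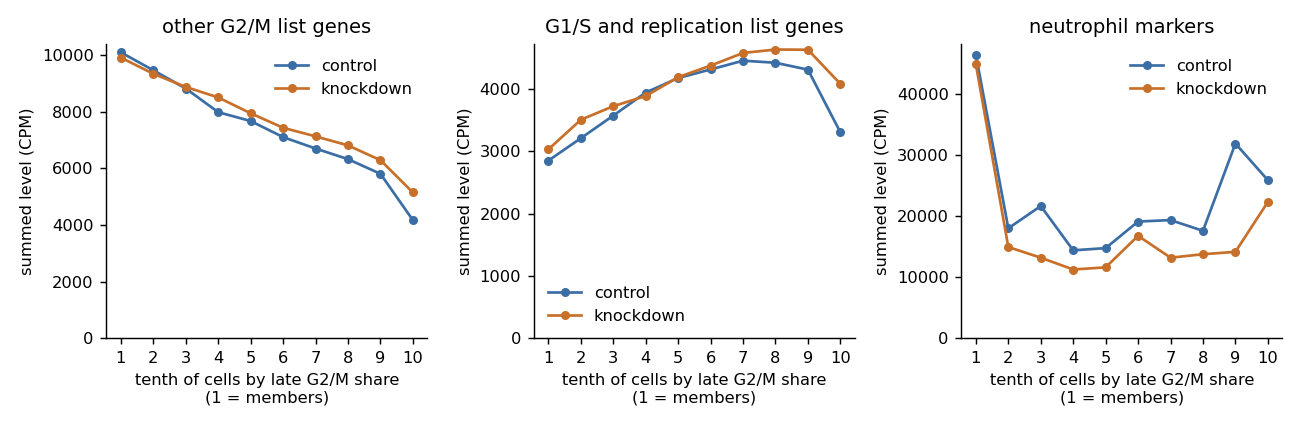
Summed level (y axis, CPM) of the other G2/M lists, the G1/S and replication lists and the neutrophil markers in 10 equal bins of the cells by late G2/M share (x axis, 1 = members), by library. The G2/M lists run from 10086 in bin 1 to 4167 CPM in bin 10 of the control library, while the neutrophil markers stand at 46497 in bin 1 and 18032 in bin 2.

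The members also differed among themselves. Split at their median share, the upper 145 and lower 146 control members had Nusap1 at 166 and 111 CPM (log2 0.58) and Kpna2 at 82.1 and 53.1 (0.63), while Top2a stood at 290.0 and 276 (0.07). In the knockdown library Nusap1 differed by 0.60, Kpna2 by 0.45 and Plk1 by -0.19. S100a8 stood at 32319 and 16205 CPM in upper and lower control members and at 33943 and 11048 in the knockdown library, and Ltf differed by log2 1.49 and 2.98. Ltf had UMIs in only 63 control and 107 knockdown members, and the 10 richest held 52.8% and 46.6% of them. Upper members were shallower, with median UMIs of 19788 against 22191.5 in control and 10915 against 12508 in knockdown cells.

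Few genes differed by 1.5-fold between knockdown and control members, in the division lists as over all genes. Both sets were chosen as the top 10% by late G2/M share, with the lowest members at 1253 and 1263 CPM. Similar levels of genes that vary with this share were therefore in part set by the rule, and say little about the knockdown. Among 2564 genes of at least 50 CPM in the members of a library, 3 (0.117%) were at least 1.5-fold higher in knockdown members and 23 (0.897%) lower. In the rest 1 (0.039%) of the same genes was higher and 28 (1.09%) lower. For the lists, over 4555 genes of at least 20 CPM, 0.351% were higher and 0.505% lower in knockdown members, and 0.132% and 0.659% in the rest. No gene of the cyclin, kinase, kinetochore, passenger complex, spindle or cytokinesis lists reached 1.5-fold in members. With shares this low over all genes, lists of this size can be expected to hold few or none. Of the DNA replication list 1 of 22 genes was higher and 0 lower. Ccnb1 differed by -0.04 (interval -0.15 to 0.07), Plk1 by 0.02 and Nusap1 by -0.13. Haus4, of the augmin list, which was not counted among the G2/M lists, was more than 1.5-fold lower in knockdown members. It stood at 48.5 CPM in control and 17.9 in knockdown members (-1.43, interval -1.75 to -1.13), and the ratio in the rest was -1.18.

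The 3 higher genes were Smim11 (0.72 in members and 0.67 in the rest), Tmem33 (0.62 and 0.51) and Arpc1a, an Arp2/3 subunit (0.59 and 0.56). Among lower genes, Cycs, cytochrome c, stood at 479 CPM in control and 246 in knockdown members (-0.96, with -0.84 in the rest), and Myl10, a myosin light chain, at 353 and 145 (-1.28 and -1.10). Prss34 (-2.55) and Cd74, the invariant chain of MHC class II (-1.89), rested on few cells: the 10 richest members held 100% of the Prss34 UMIs of both libraries and 98.6% of the Cd74 UMIs of the control library. Neutrophil markers had a median ratio of 0.04 in members and -0.46 in the rest. Camp, for instance, was at 0.24 in members and -0.52 in the rest, and S100a9 at -0.07 and -0.50. The neutrophil-like share of the rest was 19.8% in control and 13.5% in knockdown cells. In members it was lower in the knockdown library as well, at 43.3% in control and 34% in knockdown cells. The part of these shares in the ratios was not tested.

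**Figure D5:**
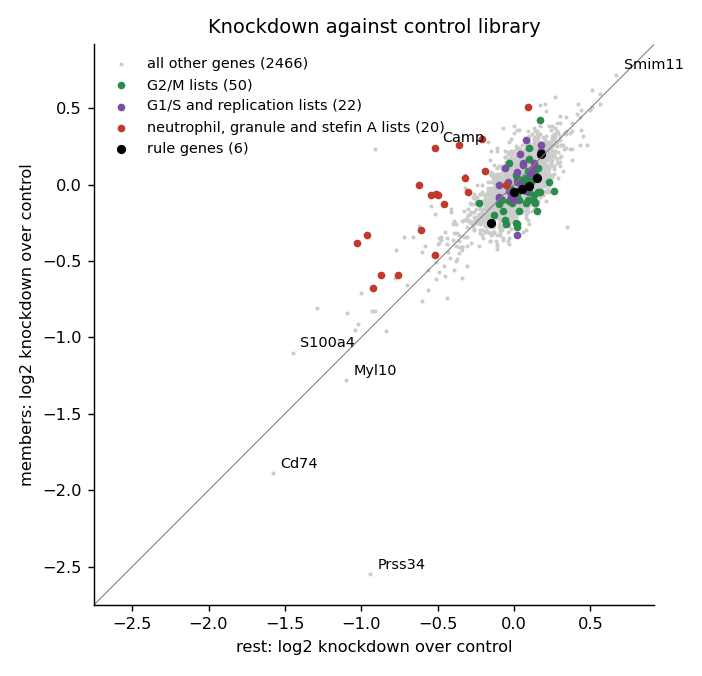
Log2 level of knockdown over control in the rest (x axis) and in members (y axis) for 2564 genes of at least 50 CPM in members of a library; colours mark gene lists and the line equal ratios. Of 50 G2/M list genes 41 lie below the line, all 20 neutrophil, granule and stefin A genes lie above it, and Prss34, Cd74, Myl10 and S100a4 are the named genes at the low end. The side of the line was not counted over all plotted genes, whose median was 0.03 in the rest and 0.01 in members.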

How the data were processed

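Single-cell RNA of 1 control and 1 knockdown library was measured with 10x Genomics 3′ version 2 chemistry, per the labels' protocols. The authors deposited raw UMI counts for each gene in each barcode. The submitters' processing notes name Cell Ranger 2.1.1 and the mm10 build, and no annotation release.

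Cells with at least 500 genes and at most 10% mitochondrial UMIs were kept, which removed 13 control and 11 knockdown barcodes. Scrublet marked 1 and 5 cells, too low a number to be used here, and doublets stayed in; removing the highest scores at 0.8% per 1000 cells was an alternative. Levels are summed UMIs scaled to CPM, log2 ratios have 0.5 UMIs added, and a gene was called at 1.5-fold. With 1 library per group no test was made, and 95% intervals are exact (Poisson split for ratios, Clopper-Pearson for shares). A simulation with 200 changed genes of 4659 covered the true ratio of the unchanged genes in 95.2% of cases, and that of the changed genes in 91.5%, for members against the rest of the control library. It drew Poisson counts from the summed UMIs, the model on which the intervals are built. It thus checks their computation only and leaves out the spread between cells, mice or cultures.

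Clusters came from scanpy 1.11.5: 2000 variable genes less those of the proliferation lists, 30 components, 15 neighbours and Leiden resolution 0.6, without batch correction. Clusters were named by the marker list that led both their top 10 genes and their raised markers, a rule settled after the data were seen; others stayed unnamed. The members and lists were chosen with earlier results of these data known. Of 514 listed genes, 509 were matched by symbol. Named genes were the rule genes, Cxxc5 and Haus4, the 20 highest and 12 lowest by the smaller effect of both libraries, the 8 highest and lowest by knockdown, the 6 highest and lowest differences, up to 6 per list, and the top genes of clusters; Fzr1 was named after its values were seen. Alternatives changed the top share, ranking genes, depth, filters, weighting and clustering.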

Additional observations from a re-analysis of the deposited data

Results flagged for a closer look

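By summed UMIs, Pf4, platelet factor 4, differed in opposite directions between members and rest in the libraries. In the control library it stood at 15.6 CPM in members and 30.7 in the rest, a log2 ratio of -0.97 (95% interval -1.30 to -0.68), with 94 UMIs in members. In the knockdown library it stood at 41.2 and 22.5 CPM, a ratio of 0.88 (0.69 to 1.06), with 290 UMIs in members. The 10 richest members held 73.4% and 70.3% of these UMIs. The difference between the libraries was not tested, since each group had 1 library.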

How the results depend on the processing

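With 1 library per group no library could be left out, and intervals cover counting error only, so differences between mice, infections or cultures are not measured. UMIs of a few rich cells make ratios look more precise than they are. Over all alternatives, 205 values of the main counts, shares and levels stayed within 1.5 times the reported count or within its counting interval, and 89 did not. Removing the highest Scrublet scores moved none of the values recomputed, which did not include the median UMI ratios. Asking for 1000 genes and at most 5% mitochondrial UMIs moved no count of genes. Shares and levels were not recomputed for it. No paired analysis was possible because each group had 1 library.

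In what follows, values are in the order control, knockdown, and "higher" and "lower" count genes at least 1.5-fold higher or lower in members. With the top 5% of cells as members, 154 and 172 were higher, 97 and 169 lower, and 9 higher in knockdown than control members; neutrophil-like cells made up 53.79% and 48.33% of members, and the median UMI ratio of knockdown members to rest was 1.031. With the top 20%, 57 and 53 were higher, 7 control neutrophil markers and 1 gene in knockdown members were higher, neutrophil-like cells made up 32.13% and 23.75%, and the UMI ratio of the knockdown library was 1.202. Ranked at 5000 UMIs per cell, 11 and 5 were lower, 11 G1/S and replication genes were lower in the knockdown library and 5 genes higher in knockdown members; the shares were 35.13% and 29.29%, the threshold 1400 CPM in both, and 10.98% and 11.97% of cells lay above 1 shared threshold. With the mean of shares over cells, 32 G2/M genes were higher in the knockdown library and 8 genes in knockdown members.

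With the rest weighted to the members' cluster shares, 45 and 27 were higher, 13 lower in the control, and 0 neutrophil markers were higher in either. The log2 ratios then reversed for Stfa2 (-0.06), Stfa2l1 (-0.12), Cd177 (-0.08) and Gm5483 (-0.14) in the control, and for Ltf (-0.37), S100a9 (-0.03), Stfa2 (-0.30), Lcn2 (-0.27), Stfa2l1 (-0.23) and Gm5483 (-0.08) in the knockdown library. With the rest weighted to the members' depth, 19 G2/M genes were higher in the control. Among genes of at least 20 CPM, 169 and 151 were higher and 65 and 42 lower, with 23 higher and 45 lower in knockdown members; at 100 CPM, 49 and 45 were higher and 8 and 4 lower. The shares of genes tested changed as well (0.117% at 50 CPM against 0.351% at 20 CPM over all cells for genes higher in knockdown members).

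Leaving a gene out of the ranking lowers the threshold by construction: to 1071 and 1073 CPM without Cdc20, 1130 and 1135 without Ccnb2, 1120 and 1154 without Cenpf, 1169 and 1169 without Aurka, 673.9 and 702.4 without Ube2c, and 1155 and 1178 without Hmmr. Without Ube2c, 10 and 2 were lower, 51 higher in the knockdown library, 21 and 13 G2/M genes higher, 7 knockdown G1/S and replication genes lower, and the neutrophil-like shares 34.71% and 25.83%. With all variable genes in the clustering the shares were 22.34% and 17.17% of members and 10.23% and 6.014% of the rest. At resolution 0.3 they were 24.76% of the control rest, 40% of knockdown members and 17.56% of the knockdown rest, and at resolution 1.0 12.4% of the knockdown rest.

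The following were chosen after seeing the data. Ranked on the other G2/M lists, 7 and 4 were lower, 11 G1/S and replication genes were lower in each library, 3 control neutrophil markers and 40 knockdown G2/M genes were higher, Cisd1 reversed to 0.05 in the control, and neutrophil-like cells made up 27.84% and 21.67% of members and 21.48% and 14.84% of the rest. Ranked on the spindle and cytokinesis lists, 12 and 3 were lower, 31 knockdown G2/M genes were higher and 11 knockdown G1/S and replication genes lower, with shares of 31.96% and 24.5% of members and 14.53% of the knockdown rest. With members chosen and measured on separate UMIs, 7 were lower in the knockdown library. Where not stated, the cause of a change was not tested.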
